A study of Felis catus with 3 samples.

Results

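THBS2 and SPP1 encode the matricellular ligands thrombospondin-2 and osteopontin, and ITGA6, ITGA8 and ITGA9 encode integrin alpha chains. Together with a beta chain, an alpha chain forms a cell surface receptor for matrix proteins. These 5 genes were taken from a fixed list of symbols that was chosen with earlier results of these data known. They were matched to Ensembl identifiers through the symbol column in the available rows of the study's expression table. All 5 were found among the 21529 genes measured. RNA was sequenced from 3 cultures of noninduced feline adipose-derived mesenchymal stem cells (ASCs), the adherent stromal cells that grow out of fat. Each culture came from the subcutaneous fat of a different cat and gave 1 library. The cells were untreated, were harvested at passages 3 to 4 from medium with 10% fetal bovine serum, and are called Feline ASC 1, 2 and 3. Age, sex and breed were not given in the sources used here, and the labels do not say which lines came from client-owned and which from specific pathogen-free cats.

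Matricellular proteins are secreted into the matrix but act mainly as signals to cells rather than as scaffold. Thrombospondin-2 is known as an inhibitor of vessel growth that also binds matrix proteases, and osteopontin is known as an adhesive and inflammatory phosphoprotein of bone and injured tissue. Integrins are pairs of 1 alpha and 1 beta chain that tie the matrix to the cytoskeleton. The α6 chain pairs with β1 or β4 and binds mainly laminins, and α6β1 has also been described as a receptor for the amino-terminal part of thrombospondins. The α8 chain pairs with β1 and binds nephronectin, fibronectin and osteopontin through the arginine-glycine-aspartate motif. The α9 chain also pairs with β1 and binds tenascin-C, VCAM1 and a site of osteopontin next to that motif.

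The values are FPKM, in which the fragments of a gene are divided by its transcript length in kilobases and by library size, so levels can be compared between genes per length. The library values summed to 621797, 688297 and 636464 FPKM in Feline ASC 1, 2 and 3, and a value above 0 was found for 14151 to 14356 genes. The number of fragments behind a value is unknown. Steps in values under 0.15 FPKM put Feline ASC 1 at 1.10 times the depth of Feline ASC 2, with 59.1% of 663 low genes on such steps. For Feline ASC 3 the steps were weak, since 30.5% of 784 genes lay on those against Feline ASC 1 and 23.8% of 702 genes on those against Feline ASC 2. With a single condition and 1 library per line there was no group comparison. The error given is the SD over the 3 lines, which holds the difference between cats and the error of a library together. In bulk RNA, fewer cells that express a gene and less RNA per cell cannot be told apart.

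THBS2 was by far the most abundant of the 5 genes. THBS2 (ENSFCAG00000002420, chromosome B2, 153178753 to 153200398 of the assembly ICGSC Felis Catus 8.0) had 173 FPKM in Feline ASC 1 against 84.2 and 136 FPKM in Feline ASC 2 and 3. The mean was 131 ± 44.5 FPKM (SD, n = 3 lines). Feline ASC 1 was the highest and Feline ASC 2 the lowest line, and the level was above that of 97.7%, 94.8% and 97.0% of all genes in Feline ASC 1, 2 and 3. It thus reached 100 FPKM in Feline ASC 1 and 3 but not in Feline ASC 2.

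SPP1 was present at a much lower level and had another order of lines. SPP1 (ENSFCAG00000002838, chromosome B1, 133030913 to 133037066) had 7.10 FPKM in Feline ASC 1 against 14.7 and 3.82 FPKM in Feline ASC 2 and 3. The mean was 8.53 ± 5.56 FPKM (SD, n = 3 lines), and it was 5.46 FPKM without Feline ASC 2. Feline ASC 2, the lowest line for THBS2, was the highest line for SPP1, and SPP1 stayed under 15 FPKM, the study's bound for moderate expression, in every line. Its level was above that of 56.7% to 74.9% of all genes.

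The integrin alpha chains were lower again. ITGA6 (ENSFCAG00000000430, chromosome C1, 161022909 to 161060567) had 1.54 FPKM in Feline ASC 1 against 4.68 and 2.53 FPKM in Feline ASC 2 and 3, with a mean of 2.92 ± 1.60 FPKM (SD, n = 3 lines). ITGA8 (ENSFCAG00000002252, chromosome B4, 14220044 to 14405383) had 0.50 FPKM in Feline ASC 1 against 1.61 and 1.82 FPKM in Feline ASC 2 and 3, with a mean of 1.31 ± 0.71 FPKM (SD, n = 3 lines). ITGA8 therefore lay low in Feline ASC 1 and at similar values in the other two lines. ITGA9 (ENSFCAG00000002281, chromosome C2, 151842387 to 152163959) had 0.0292 FPKM in Feline ASC 1 against 0.369 and 0.307 FPKM in Feline ASC 2 and 3, with a mean of 0.235 ± 0.181 FPKM (SD, n = 3 lines). The ITGA9 value of Feline ASC 1 was among the smallest recorded, with 2.19% of the 14356 values above 0 in that library below it, against 15.0% and 15.3% for ITGA9 in Feline ASC 2 and 3. The number of fragments behind it is unknown, so its fold against the other lines is uncertain.

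**Figure D1:**
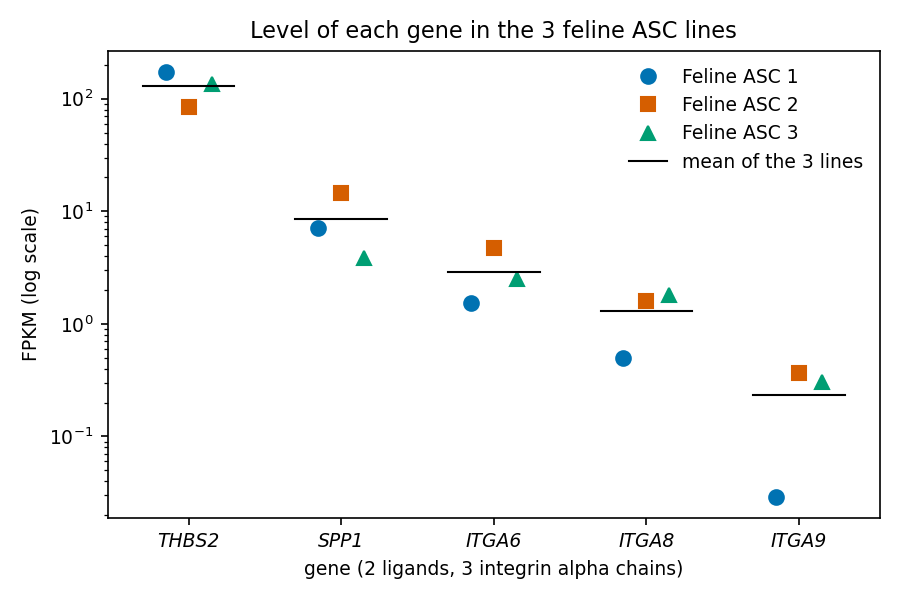
FPKM of the 5 genes (log axis) in Feline ASC 1 (circles), 2 (squares) and 3 (triangles), with a bar at the mean of the 3 lines. The means fall from 131 FPKM for THBS2 to 0.235 FPKM for ITGA9, and the circles of the 3 integrin chains lie lowest.

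The positions given are the spans of the loci in the study's table, and 0 other loci in the available part of that table overlapped any of the 5. The neighbour of THBS2 on B2 is SMOC2, a SPARC-related matricellular gene, at a distance of 364075 bases. SMOC2 had 3.91, 8.003 and 2.50 FPKM in Feline ASC 1, 2 and 3 and so followed the order of SPP1 and not that of THBS2. The neighbour of SPP1 on B1 is PKD2, the gene of the cation channel polycystin-2, 22090 bases away, with 24.8, 27.8 and 22.6 FPKM. PKD2 also had the order of SPP1, but its highest value was only 1.23 times its lowest. GOLGA4, a Golgi tethering gene 68134 bases from ITGA9, had 19.5, 18.6 and 19.7 FPKM and was nearly even across the lines. Neighbours were read from the order of RefSeq protein-coding genes, and 3 of the 10 flanking genes had a symbol in the available part of the expression table.

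Ordered by mean level, the genes ran THBS2, SPP1, ITGA6, ITGA8 and ITGA9, and this order held within each of the 3 lines. An exact paired permutation test of log2 FPKM (two-sided) gave p = 0.25 for each of the 4 pairs of neighbours, also after Benjamini-Hochberg adjustment, which is the smallest p that 3 lines allow. The test could not decide the order, since the pairs were set by the means of these same lines. The ranges of the values are therefore described. THBS2 and SPP1 were separated beyond the spread, since the lowest THBS2 value (84.2 FPKM) was above the highest SPP1 value (14.7 FPKM). The ranges of SPP1 and ITGA6 overlapped, as did those of ITGA6 and ITGA8, although the first of each pair was higher in every line. The log2 difference within lines was 1.48 ± 0.82 for SPP1 over ITGA6 and 1.21 ± 0.64 for ITGA6 over ITGA8 (SD, n = 3 lines). ITGA8 was separated from ITGA9, with a lowest value of 0.50 FPKM against a highest value of 0.369 FPKM.

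All 5 genes differed at least 2-fold between their highest and lowest lines. Among the 13347 genes above 0 in every line, 22.6% did so, but the share depended strongly on level. It was 8.22% for genes with a mean of 15 FPKM or more, 19.6% for genes between 1 and 15 FPKM and 66.1% for genes under 1 FPKM. The ratio of the highest to the lowest line was 2.05 for THBS2, which was larger than that of 92.3% of the 5316 genes in its class of level. The ratios of SPP1 (3.84), ITGA8 (3.64) and ITGA6 (3.04) were larger than those of 93.6%, 93.2% and 90.8% of the 5869 genes between 1 and 15 FPKM. ITGA9 had a ratio of 12.6, larger than that of 96.3% of the 2162 genes under 1 FPKM, a class with a median ratio of 2.60. Low genes at 0 in any line have no finite ratio and are not in this class. The place of ITGA9 and the share of 66.1% therefore hold only for genes above 0 in every line. The ITGA9 ratio also rests on the very low value of Feline ASC 1.

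The ratios were also formed with 1 line left out, where leaving out the middle line of a gene cannot change its ratio. Without Feline ASC 1, ITGA8 and ITGA9 differed by only 1.13-fold and 1.20-fold between the remaining lines, THBS2 by 1.62-fold and ITGA6 by 1.85-fold. The SPP1 ratio of 3.84 could not change, Feline ASC 1 being its middle line. Without Feline ASC 2, the ratio fell to 1.27 for THBS2, 1.86 for SPP1, 1.64 for ITGA6 and 10.5 for ITGA9. That of ITGA8 (3.64) could not change, Feline ASC 2 being its middle line. Without Feline ASC 3, the ratio fell to 2.06 for SPP1 and 3.23 for ITGA8. Those of THBS2, ITGA6 and ITGA9 could not change, Feline ASC 3 being their middle line. When 1 FPKM was added to each value, which damps low genes, ITGA8 and ITGA9 fell to ratios of 1.88 and 1.33, and the share of all genes at 2-fold fell to 6.14%.

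**Figure D2:**
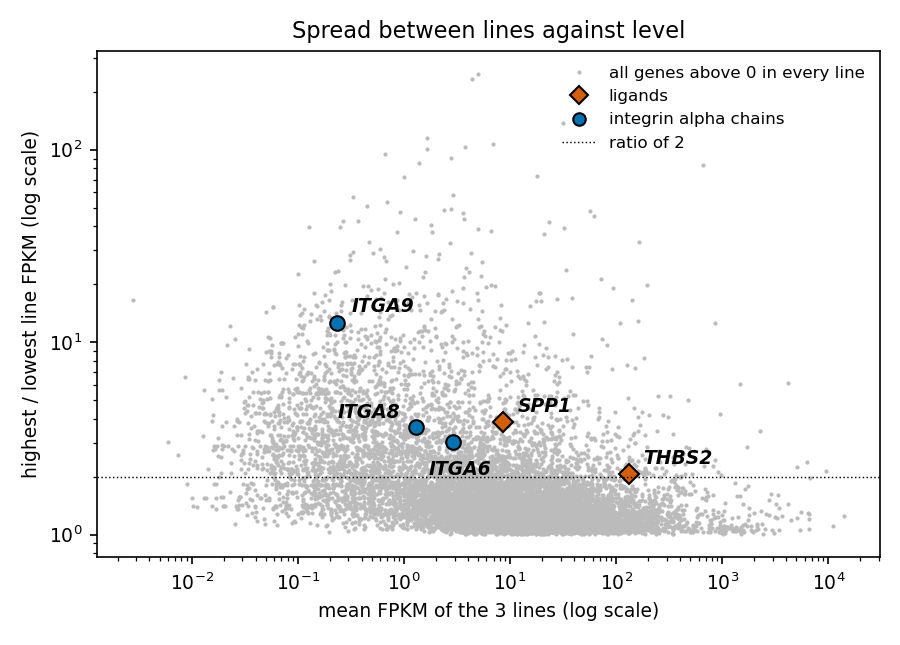
Ratio of the highest to the lowest line against the mean FPKM of the 3 lines, both on log axes, for the 13347 genes above 0 in every line (grey), the ligands (diamonds) and the integrin alpha chains (circles). The dotted line marks a ratio of 2. Grey points spread wider toward low means, and ITGA9, with a ratio of 12.6, lies at the low end.

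The ligands and the chains were then compared by line. THBS2 was highest in Feline ASC 1, then Feline ASC 3, then Feline ASC 2, an order held by 18.6% of the 13347 genes. SPP1 was highest in Feline ASC 2, then Feline ASC 1, then Feline ASC 3, as were 19.9% of genes. ITGA6 and ITGA9 were highest in Feline ASC 2, then Feline ASC 3, then Feline ASC 1, an order that 20.6% of genes shared and that is the reverse of the THBS2 order. ITGA8 was highest in Feline ASC 3, then Feline ASC 2, then Feline ASC 1, as were 11.1% of genes. All 3 integrin chains were thus lowest in Feline ASC 1, the line with the most THBS2, and 31.8% of all genes were lowest in that line. Over 3 lines no correlation can be tested, and these orders are a description.

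On the log2 scale, centred on each gene's mean over the lines, THBS2 stood at 0.46 in Feline ASC 1, at −0.58 in Feline ASC 2 and at 0.12 in Feline ASC 3. SPP1 stood at −0.05, 0.995 and −0.945 in the same lines. The chains were all below their means in Feline ASC 1, at −0.77 for ITGA6, −1.18 for ITGA8 and −2.35 for ITGA9, and above them in Feline ASC 2, at 0.83, 0.51 and 1.31. In Feline ASC 3 ITGA6 was at −0.06, whereas ITGA8 and ITGA9 were at 0.68 and 1.04. SPP1 and the chains were thus all above their means in Feline ASC 2 and differed in the other lines. In Feline ASC 1 SPP1 was near its mean and the chains were below theirs. In Feline ASC 3 SPP1 was lowest, ITGA6 was near its mean, and ITGA8 and ITGA9 were above theirs.

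**Figure D3:**
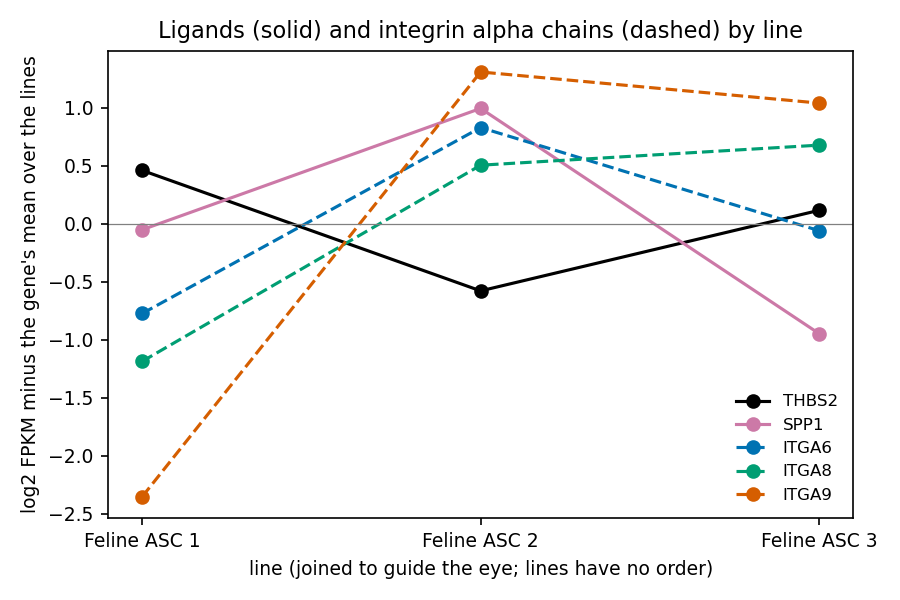
Log2 FPKM of each gene minus its mean over the 3 lines, for Feline ASC 1, 2 and 3, with ligands as solid and integrin alpha chains as dashed traces that only guide the eye. THBS2 is above 0 in Feline ASC 1 where the 3 chains are below 0, and the signs are exchanged in Feline ASC 2.

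Within a library the scale cancels, so ratios between genes were formed for each line. The ratio of THBS2 to SPP1 was 24.3 in Feline ASC 1 but 5.74 in Feline ASC 2 and 35.7 in Feline ASC 3. The summed level of the 3 chains was 2.07, 6.66 and 4.65 FPKM in these lines. THBS2 exceeded this sum 83.5-fold in Feline ASC 1 but 12.6-fold in Feline ASC 2 and 29.3-fold in Feline ASC 3 (mean 41.8 ± 37.0, SD, n = 3 lines), and the mean was 21.0 without Feline ASC 1. SPP1 exceeded it 3.43-fold in Feline ASC 1 and 2.20-fold in Feline ASC 2, but was below it in Feline ASC 3, at a ratio of 0.821. The ratio of THBS2 to the chains thus differed 6.61-fold between lines, and that of SPP1 differed 4.18-fold. Against ITGA6 alone, the chain described above for thrombospondins, the THBS2 ratio was 112, 18.0 and 53.9 in Feline ASC 1, 2 and 3. The sum covers only the 3 listed chains, and such RNA ratios do not measure ligand against receptor.

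The shares of ITGA6 and ITGA8 among the chains changed less, by 1.37-fold and 1.62-fold between lines, whereas that of ITGA9 changed 4.67-fold. ITGA6 held 74.4%, 70.2% and 54.3% of their summed FPKM in Feline ASC 1, 2 and 3, ITGA8 held 24.1%, 24.2% and 39.1%, and ITGA9 held 1.41%, 5.55% and 6.59%. ITGA6 was the main chain of the 3 in every line, by 3.08-fold over ITGA8 in Feline ASC 1, 2.90-fold in Feline ASC 2 and 1.39-fold in Feline ASC 3.

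**Figure D4:**
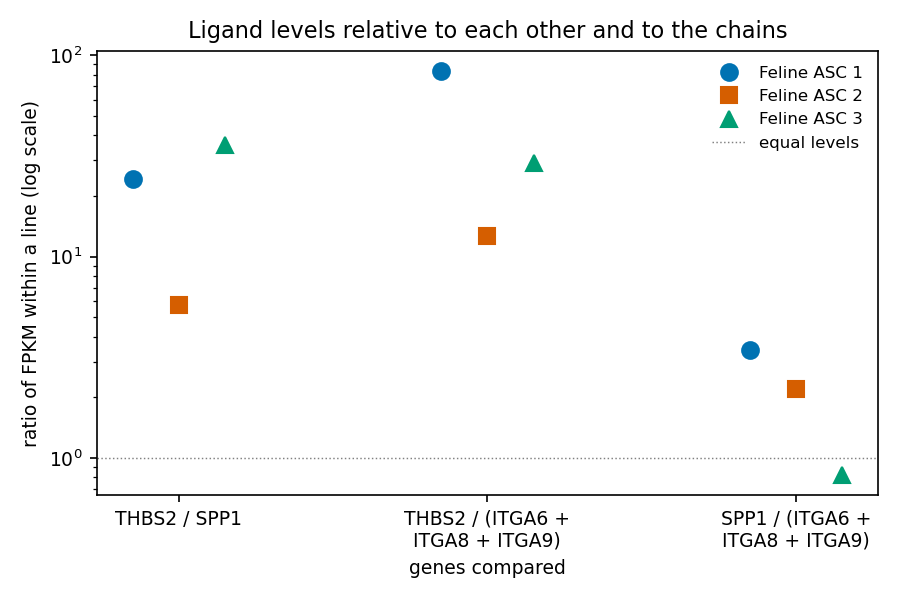
Ratio of FPKM within each line (log axis) of THBS2 to SPP1, THBS2 to the summed integrin chains and SPP1 to the summed chains, with a dotted line at equal levels. THBS2 is above the chains in every line, and SPP1 falls below them only in Feline ASC 3, at 0.821.

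Around these genes, 12 of 115 symbols in 6 lists of adhesion genes had a value that could be matched by symbol, older and newer symbols of a gene being counted separately. Only 1997 rows of the study's expression table were available here, and 1811 of them carried a symbol, which is 8.41% of all genes. A listed gene left unmatched may thus still have a value. Of the 12, 11 were above 0 in every line, and 6 of these differed at least 2-fold between lines, against 22.6% of all genes and 8.22% of those with a mean of 15 FPKM or more, the level that 8 of the 12 reached in every line. Of the other matricellular genes, 3 of 35 symbols could be matched, and all 3 differed at least 2-fold between lines. The share of all genes was 19.6% at the level of SMOC2 and 8.22% at that of the other 2. The 3 were SMOC2 (given above, ratio 3.20), WISP2 and EFEMP1. WISP2, a CCN family protein, had 87.1, 0.629 and 6.61 FPKM in Feline ASC 1, 2 and 3, the order of THBS2 with a ratio of 138. EFEMP1, the matrix protein fibulin-3, had 414, 89.3 and 49.8 FPKM and was also highest in Feline ASC 1.

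Of the receptors and partners of the ligands outside the integrin family, 2 of 10 symbols could be matched, and these 2 genes were high and even. The unmatched symbols, among them CD44, CD36 and CD47, were not analysed here. LRP1, an endocytic receptor of thrombospondins, had 353, 426 and 421 FPKM. CALR, which encodes calreticulin, a partner of LRP1 in thrombospondin signalling, had 556, 677 and 708 FPKM. Both were lowest in Feline ASC 1, as the integrin chains were, but with ratios of only 1.21 and 1.27. Of the 8 beta chains 1 could be matched, the leukocyte chain ITGB2, which does not pair with α6, α8 or α9 and had 0.0612, 0.0335 and 0 FPKM. The partners ITGB1 and ITGB4 and the 15 other alpha chains (0 of 15 matched) were not analysed here.

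Other ligands of the chains were matched for 3 of 23 symbols. NID2, a linker of laminin networks, had 5.32, 8.66 and 12.6 FPKM, the order of ITGA8 with a ratio of 2.37. ADAM9 had 278, 290 and 280 FPKM and ADAM12 had 62.2, 69.5 and 74.6 FPKM. Both encode proteases with a disintegrin domain that α9β1 can bind, and both were far above ITGA9 in every line. Among the focal adhesion adaptors, 3 of 24 symbols were matched. ACTN1, an actin crosslinker, had 296, 689 and 346 FPKM, and TNS1, a tensin that binds integrin tails, had 82.9, 176 and 84.4 FPKM. Both had the line order of ITGA6 and ITGA9, with ratios of 2.32 and 2.12. The related TNS2 had 43.1, 31.7 and 42.5 FPKM, the order of THBS2 with a ratio of 1.36.

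**Figure D5:**
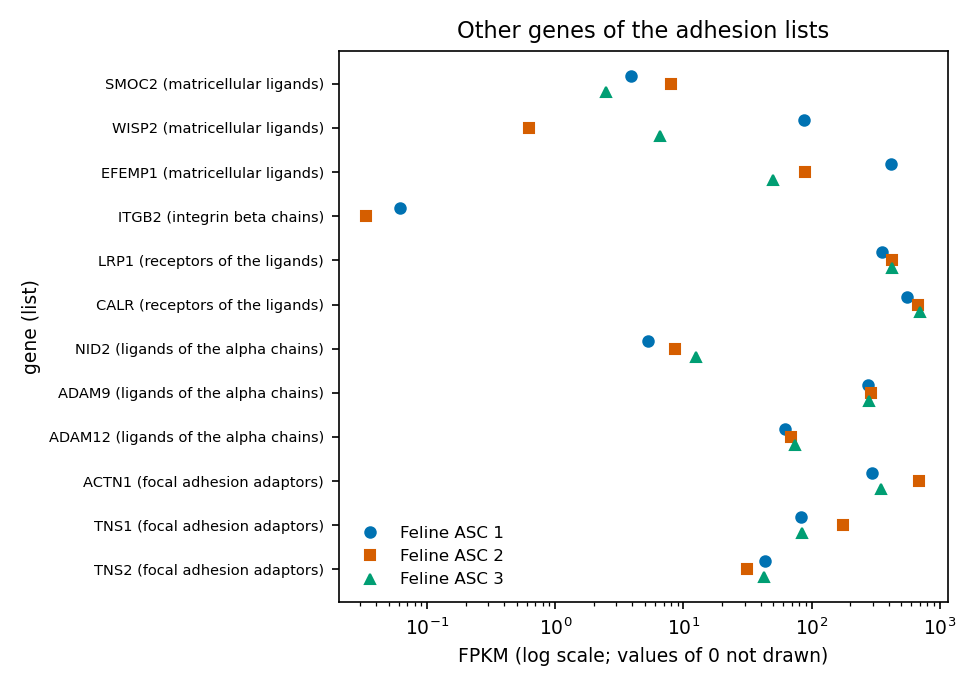
FPKM (log axis, values of 0 not drawn) of the 12 listed adhesion genes that had a symbol, in Feline ASC 1 (circles), 2 (squares) and 3 (triangles). The receptor gene LRP1 and CALR, the gene of its partner, are even across lines. WISP2 is spread 138-fold, and ACTN1 and TNS1 are highest in Feline ASC 2.

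Markers of other cells were read in the same libraries. The contractile genes SMTN (44.7, 112 and 56.3 FPKM) and LMOD1 (27.4, 109 and 22.0 FPKM) were the 2 of 6 mural markers matched by symbol. Their summed level was 72.1, 221 and 78.3 FPKM in Feline ASC 1, 2 and 3. They were highest in Feline ASC 2, as SPP1, ITGA6 and ITGA9 were. SMTN had the order of ITGA6 and ITGA9, held by 20.6% of the 13347 genes above 0 in every line. LMOD1 had that of SPP1, held by 19.9%. The part of contractile cells in the SPP1, ITGA6 and ITGA9 values was not tested. The summed level of the 4 of 8 leukocyte markers matched was 1.96, 0.598 and 0.909 FPKM in Feline ASC 1, 2 and 3, with CD2 at 0 in every line. This is the order of THBS2, at a far lower level, an order held by 18.6% of the 13347 genes above 0 in every line. CD14 (0.878, 0 and 0.129 FPKM) and CORO1A (1.03, 0.564 and 0.780 FPKM) also had it. ITGB2 (0.0612, 0.0335 and 0 FPKM) did not. The part of leukocyte RNA in the THBS2 values was not tested. Of the endothelial markers 1 of 5 was matched, TEK, at 0.0129 to 0.0595 FPKM. The epithelial marker KRT5 (1 of 5) was at 0 in every line, and 0 of 5 adipocyte markers were matched. Of the 6 mesenchymal stem cell markers 1 was matched, ENG (CD105), with 72.5, 117 and 73.9 FPKM.

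For each of the 5 genes the 3 most similar profiles were sought among the named genes with a mean of at least 1 FPKM, by the Euclidean distance of centred log2 FPKM over the 3 lines. For THBS2 they were GSR (distance 0.0099), ST8SIA5 (0.015) and SCARB2 (0.039), and 25 of 1151 genes lay within 0.25. For SPP1 they were NOTCH3 (0.14), SMOC2 (0.21) and ZDHHC2 (0.21). NOTCH3 had 21.7, 41.5 and 10.2 FPKM. For ITGA6 they were HOXB6 (0.075), COL5A1 (0.14) and PDGFC (0.18). COL5A1, a fibrillar collagen gene, had 178, 480 and 261 FPKM. For ITGA8 they were SLC35F4 (0.096), RYR1 (0.56) and PTGDS (0.57), and only SLC35F4 was within 0.25. For ITGA9 they were ADGRF4 (0.50), RYR1 (0.93) and SLC35F4 (1.46), and 0 of 1152 genes lay within 0.25, a search that left out genes under 1 FPKM, the level of ITGA9 itself. A profile of 3 values fits many genes, and the distances are a description.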

How the data were processed

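Strand-specific poly-adenylated RNA libraries were made from 200 ng of total RNA of each line. Per the paper's methods, HISAT alignment was to cat assembly ICGSC Felis Catus 8.0, and Cufflinks gave the gene values. The deposited values are FPKM per Ensembl gene that the authors normalized across the 3 libraries with Cuffnorm. Program versions, annotation release and normalization method are not given in the sources used here. Multi-mapped reads and incomplete gene models may shift single genes.

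Symbols and positions came from the available 1997 rows of the study's expression table, of which 1811 carry a symbol (8.41% of all genes). The RefSeq table paired 0 genes with Ensembl identifiers and gave the order of neighbouring genes only. Lines were numbered in accession order. FPKM values were used as deposited with no pseudocount or filter, and ratios between lines were formed for genes above 0 in every line. Python 3.11.15, pandas 2.3.3, numpy 2.4.6, scipy 1.17.1 and matplotlib 3.10.9 were used, and the code was tested on simulated data. Named genes were the 5 members, all listed genes with a symbol, the 3 nearest profiles per member, and PKD2 and GOLGA4, which were added after values were seen. Members and lists were chosen with earlier results of these data known. Alternatives were TPM (each line scaled to 1000000), quantile normalization, pseudocounts of 1 and 0.1, a filter at 1 FPKM and leaving out each line.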

Additional observations from a re-analysis of the deposited data

How the results depend on the processing

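Each of the 5 genes kept its order of lines under TPM and quantile scaling. Under settings that kept all lines, 33 of 37 values stayed within a set bound. The bound was the SD between lines for means, the SD of log2 FPKM for ratios and a fixed fold for the share of genes. It is wide for low genes, since the ITGA9 ratio fell from 12.6 to 3.63 with 0.1 FPKM added and still counted as within it. With 1 line left out, 5 ratios moved beyond the bound. They were those of THBS2, SPP1 and ITGA6 without Feline ASC 2 and those of ITGA8 and ITGA9 without Feline ASC 1. A mean without 1 line cannot move by as much as the SD over the 3 lines. Leaving out the middle line cannot change a ratio either, so such values say nothing about stability. Rescaling to TPM raised the mean levels to 205 for THBS2, 12.9 for SPP1, 4.42 for ITGA6, 2.001 for ITGA8 and 0.355 for ITGA9. Adding 1 FPKM lowered the ITGA9 ratio to 1.33. The share of genes at 2-fold was 14.2% among genes with a mean of at least 1 FPKM and 6.14% with 1 FPKM added, against 22.6%. Leaving out each line in turn gave ratios of 1.27 to 2.05 for THBS2, 1.86 to 3.84 for SPP1, 1.64 to 3.04 for ITGA6, 1.13 to 3.64 for ITGA8 and 1.20 to 12.6 for ITGA9. The mean levels then ranged from 110 to 154 FPKM for THBS2, 5.46 to 10.9 for SPP1, 2.03 to 3.60 for ITGA6, 1.06 to 1.72 for ITGA8 and 0.168 to 0.338 for ITGA9. The fragments behind each value are unknown, which limits ITGA9 most, and the ratios of its low values were not tested against repeat libraries.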
